A study of Mus musculus with 4 samples.

Results

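The genes described here are 33 transcriptional targets of the tumour suppressor p53 other than Cdkn1a (p21), the best known of them. They were chosen by name as known p53 targets. No measured value enters the rule, but the list was made with earlier results of these data known. Of the 33 genes, 31 were found under the listed symbol and 2 under another symbol of the same gene (Pidd1 as Lrdd and Tp53i11 as Trp53i11), among 23235 gene symbols in all. RNA was sequenced from primary embryonic fibroblasts of C57BL/6 mice, cells grown from minced and trypsin-digested embryos, with 1 library for each of 4 genotypes. These were wild type, a Gadd45a deletion (written Gadd45-/- on the sample and Gadd45a-/- in the design text), G3 Terc-/- and G3 Gadd45-/-Terc-/-, called dKO by the submitters. In the usual naming of these mice G3 denotes the third generation bred without Terc, the RNA template of telomerase, and no treatment was named for any group. The sources used here do not give how many embryos went into a culture, the passage number or the age of the embryos.

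p53 is a transcription factor that is kept low by the ubiquitin ligase Mdm2 and is stabilised by DNA damage, including the damage signal from short telomeres. Once active it switches on genes that arrest the cell cycle, open a path to apoptosis, repair DNA, adjust metabolism and, through Mdm2 itself, shut p53 off again. In fibroblasts this programme is tied to senescence, the lasting arrest of cells with worn telomeres or other damage. Gadd45a is itself a p53 target and encodes a small stress-induced protein.

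Checks of the labels bear on all that follows. Gadd45a measured 22.9 FPKM (fragments per kilobase of transcript, relative to all mapped fragments of a library) in the wild-type library and 33.9, 31.4 and 45.1 FPKM in those labelled Gadd45a-/-, G3 Terc-/- and G3 dKO. It was thus not lower in either library labelled as lacking it, and the exons behind the value could not be looked at, so genotypes are given as labelled. Terc was listed at 0.53 and 0.26 FPKM in the Terc-proficient libraries, wild type first, and at 0 in both G3 libraries. All of these values lie near the floor, so by themselves they do not settle the Terc genotype. The library labelled Gadd45a-/- was also the sole one with the Y-linked gene Ddx3y (16.4 FPKM, at most 0.0228 FPKM elsewhere) and without much Xist (0.154 FPKM, 24.0 to 34.1 FPKM elsewhere). Sex and genotype cannot be told apart in its comparisons. All 9 fibroblast markers were above 1 FPKM in every library, with a summed level of 6295 to 12035 FPKM that was lowest in the library labelled G3 Terc-/-. Not all moved alike: Dcn (25.6 FPKM in wild type, 584 FPKM in that library) and Pdgfra (33.2 and 37.1 FPKM) were higher there. The other fibroblast markers were lower there than in wild type. The summed level of 6 macrophage markers was 4.32 to 15.6 FPKM, highest in the library labelled G3 dKO, and that of 5 endothelial markers 1.13 to 1.49 FPKM. Muscle markers summed to 0.793 to 23.6 FPKM and hepatocyte markers to 0.0272 to 8.34 FPKM, with the highest sums in wild type, and Cd3e of T lymphocytes was listed at 0 throughout. Tnnt2 alone (23.2 FPKM) made up nearly all of the wild-type muscle sum. Neural markers summed to 44.8 to 103 FPKM, highest in the library labelled G3 dKO. Tubb3 (77.0 FPKM) and Nes (25.1 FPKM) made up nearly all of the sum in that library. Not all neural markers moved alike between wild type and that library. Map2 (1.34 and 0.489 FPKM) and Sox2 (0.523 and 0.0223 FPKM) were lower in the latter, and Gfap (0.0427 and 0.0798 FPKM) was higher. The part of other cells in the results was not tested, and in bulk RNA fewer cells of a type and less RNA per cell cannot be told apart. Depth, estimated from the lowest values, was 19200000 to 19700000 fragments per library.

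As a group, the p53 targets stood highest in the library labelled G3 Terc-/-. Their median level was 18.6 FPKM in the wild-type library and 16.4, 26.7 and 19.9 FPKM in those labelled Gadd45a-/-, G3 Terc-/- and G3 dKO. All 33 were above 1 FPKM in every library, so each passed the filter used for all genes, a mean of 1 FPKM or more. The highest of the 4 values lay in the library labelled G3 Terc-/- for 23 of the 33 (69.7%), against 39% of the 11586 genes past that filter. It lay in wild type for 6 (30.9% of all genes), in the library labelled G3 dKO for 4 (15.5% of all genes) and in the library labelled Gadd45a-/- for 0 (14.7% of all genes). The targets spanned a wide range of levels per length: in wild type Perp was lowest at 1.63 FPKM, about 61 fragments, and Bax highest at 298 FPKM.

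The first comparison asks what G3 Terc deficiency goes with. Differences are given on the log2(FPKM + 1) scale, and a gene counts below as higher or lower where this difference reached 1 in size, a 2-fold difference of FPKM + 1. Relative to wild type, 8 of 33 p53 targets (24.2%) were higher in the library labelled G3 Terc-/-, against 9.93% of all genes. None was lower, against 6.23% of all genes. The 8 were Fas, Perp, Gdf15, Dcxr, Tp53i11, Mdm2, Ak1 and Plk2. The median difference was 0.48 over the 33 targets and 0.01 over all genes, and 26 of the 33 (78.8%) lay above 0, against 50.4% of all genes. With a rule of 1.5-fold, 12 targets were higher (36.4%, against 19.1% of all genes) and none lower (15.2% of all genes), the added ones being Btg2, Pidd1, Trp53inp1 and Ercc5. These are differences between single libraries with no replicate check, so no error or p-value can be given for any of them.

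**Figure D1:**
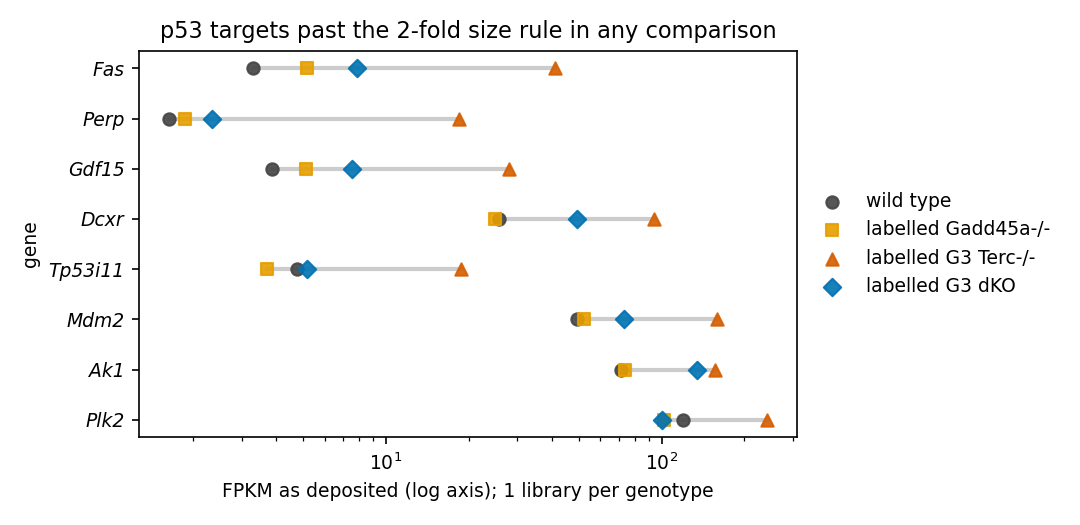
FPKM (log axis) of the 8 p53 targets past the 2-fold size rule in any comparison, with 1 marker per library and a grey line from the lowest to the highest value. The library labelled G3 Terc-/- holds the highest value for every gene, from 18.4 FPKM for Perp to 241 FPKM for Plk2.

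The second comparison asks what the label of added Gadd45a deficiency goes with in G3 Terc-/- cells. In the library labelled G3 dKO, 6 of 33 targets (18.2%) lay below their level in the library labelled G3 Terc-/- by this rule, against 4.78% of all genes. None was higher, against 1.51% of all genes. Over all genes these shares stand for 554 lower and 175 higher, or 490 lower and 272 higher after quantile normalization. The 6 lower targets were Perp, Fas, Gdf15, Tp53i11, Plk2 and Mdm2. By the 1.5-fold rule 9 were lower (27.3%, against 10.8% of all genes) and none higher (6.15% of all genes), the added ones being Dcxr, Btg2 and Mdm4. The median difference was -0.30 over the targets and -0.03 over all genes. This comparison shares the library labelled G3 Terc-/- with the first, so its values enter both.

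In the other comparisons 1 or none of the targets passed the rule. Between the library labelled Gadd45a-/- and wild type 0 of 33 were higher (0.319% of all genes) and 0 lower (0.19% of all genes), with differences from -0.45 for Bbc3 to 0.53 for Fas and a median of -0.07. Between the library labelled G3 dKO and the library labelled Gadd45a-/- 0 of 33 were higher (2.49% of all genes) and 0 lower (2.34% of all genes), with a median of 0.20. Against wild type, the library labelled G3 dKO had 1 higher target, Fas (3.03%, against 3.81% of all genes), and none lower (2.84% of all genes), with a median of 0.18. These shares past the rule are near or below those of all genes. Above 0 lay 10 of 33 targets (30.3%), 24 of 33 (72.7%) and 22 of 33 (66.7%) in these comparisons in turn. Of all genes, 57.5%, 51.2% and 54.6% lay at or below 0, with medians of -0.03, -0.01 and -0.04.

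**Figure D2:**
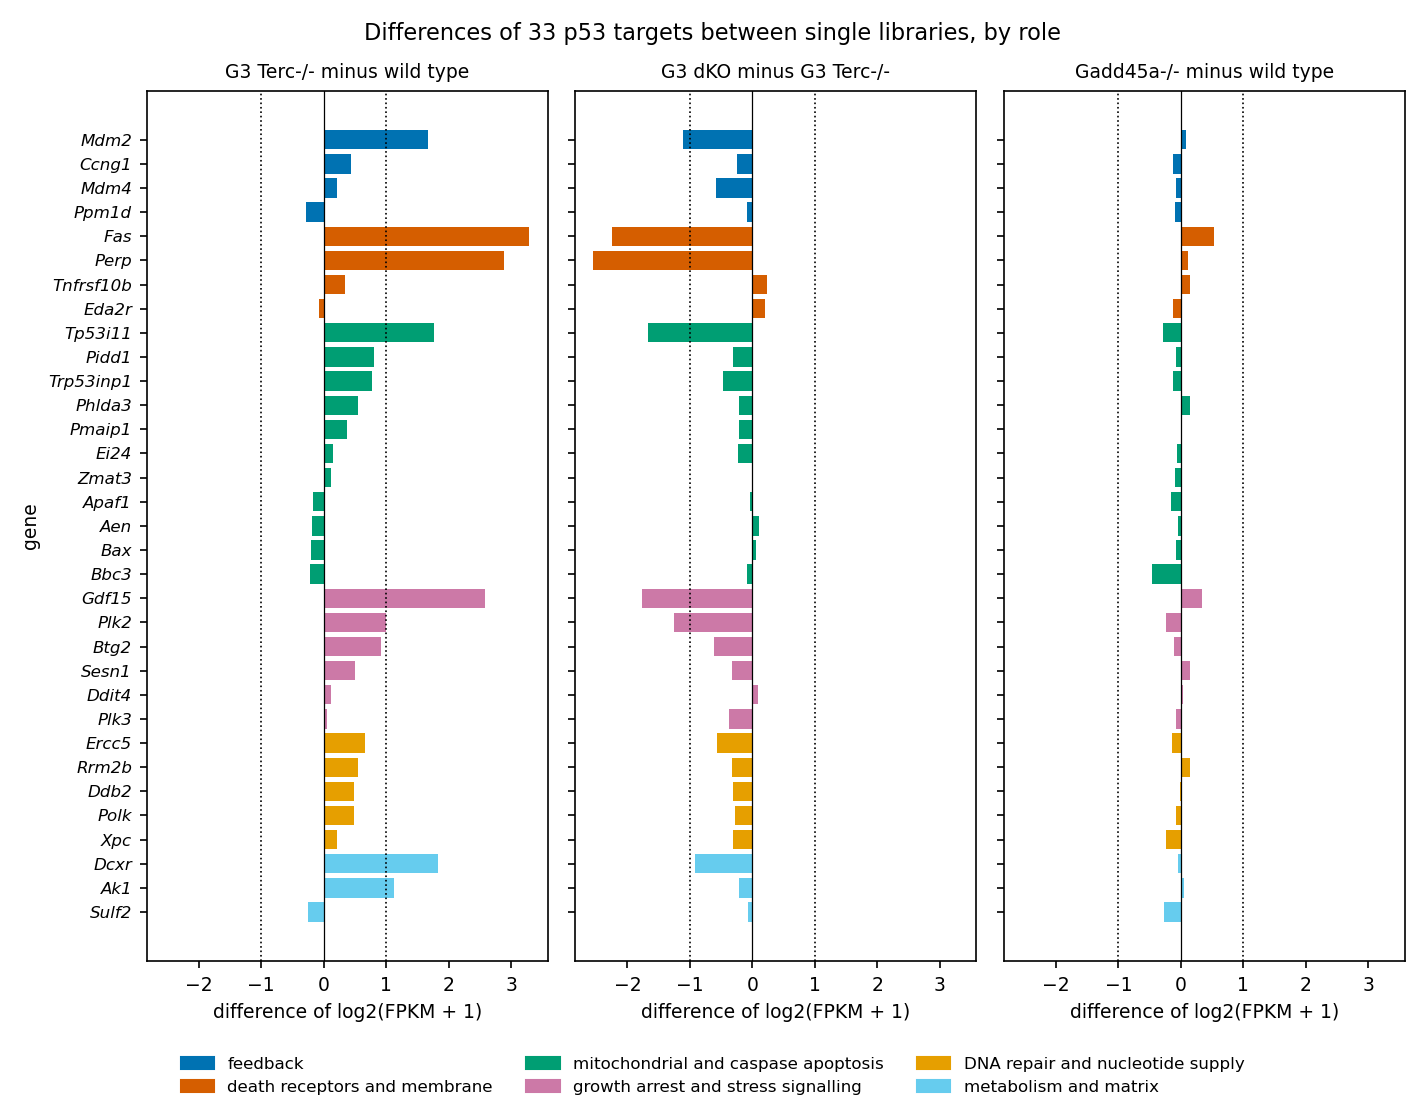
Differences of log2(FPKM + 1) for the 33 p53 targets, coloured by role, in 3 comparisons between single libraries, with dotted lines at the size rule of -1 and 1. Fas, Perp, Gdf15, Tp53i11, Mdm2 and Plk2 reach a dotted line in both of the first panels, Dcxr and Ak1 in the first alone, and no bar reaches one in the third.

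Among the feedback genes, which hold p53 in check, Mdm2 was the one past the size rule. Mdm2, the ligase that marks p53 for destruction, measured 49.2 FPKM in the wild-type library and 52.1, 159 and 73.3 FPKM in those labelled Gadd45a-/-, G3 Terc-/- and G3 dKO. The library labelled G3 Terc-/- was thus 3.23-fold above wild type and 2.16-fold above the library labelled G3 dKO, with differences of 1.67 and -1.10 on the log2 scale. Across the libraries as listed, Mdm4, a relative of Mdm2 that blocks the activation domain of p53, stood at 12.5, 11.9, 14.7 and 9.46 FPKM. Its lowest value lay in the library labelled G3 dKO, 0.59 below the library labelled G3 Terc-/- on the log2 scale. Ppm1d, the phosphatase Wip1 that removes activating phosphates from p53 and its kinases, stood at 6.09, 5.62, 4.80 and 4.49 FPKM and was lowest in the G3 libraries. Ccng1, cyclin G1, which directs a phosphatase to Mdm2, was abundant throughout at 182, 166, 248 and 208 FPKM. Thus 3 of the 4 feedback genes (75%, against 50.4% of all genes) lay above wild type in the library labelled G3 Terc-/-. Ppm1d lay below wild type there, with a difference of -0.29.

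The start-site regions of these genes are shown because p53 binds a short repeated half-site, and Mdm2 was the sole gene with both a call by the size rule and a half-site match in its window. RefSeq windows from 250 bases before to 50 bases after a start site (build GRCm38.p6) were at hand for 25 of the 33 genes, 36 windows in all. The p53 half-site of 10 bases was searched as RRRCWWGYYY, with R for A or G, W for A or T and Y for C or T. This pattern, though not each match to it, is its own reverse complement. A match was found for 8 of the 25 genes (32%), against 9.55% of the 27025 genes in the table. By window, 8.36% of all 32851 windows of this length held it. The 8 genes were Mdm2, Ccng1, Ppm1d, Bax, Aen, Ei24, Sesn1 and Polk. No target had 2 half-sites with at most 13 bases between them, against 0.074% of genes in the table, and the core CATG, also its own reverse complement and found within some half-sites, was in windows of 40% of the 25 genes and 64.8% of all genes. The genes without a window in the table were Pmaip1, Trp53inp1, Zmat3, Perp, Tnfrsf10b, Rrm2b, Ddb2 and Xpc. The whole Mdm2 window (chr10:117710709-117711008, minus strand) is given first, then 30 bases around the match in 4 other genes for comparison, with the half-site in capitals.
Mdm2: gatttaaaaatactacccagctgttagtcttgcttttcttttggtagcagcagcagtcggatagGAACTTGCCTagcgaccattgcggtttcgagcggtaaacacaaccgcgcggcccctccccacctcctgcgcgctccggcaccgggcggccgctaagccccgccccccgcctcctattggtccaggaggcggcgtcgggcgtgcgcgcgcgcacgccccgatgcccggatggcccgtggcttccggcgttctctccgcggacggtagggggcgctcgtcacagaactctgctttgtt
Ccng1 (chr11:40755452-40755481, minus strand): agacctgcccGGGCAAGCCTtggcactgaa
Ppm1d (chr11:85311112-85311141, plus strand): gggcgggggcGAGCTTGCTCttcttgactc
Bax (chr7:45467080-45467109, minus strand): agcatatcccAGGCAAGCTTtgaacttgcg
Ei24 (chr9:36797325-36797354, minus strand): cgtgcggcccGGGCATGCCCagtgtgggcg

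The match began 186 bases before the start site in Mdm2, 185 in Ccng1, 132 in Ppm1d, 201 in Bax and 10 in Ei24. The FPKM of these genes did not move as one: in the library labelled G3 Terc-/-, Mdm2 differed from wild type by 1.67, Ccng1 by 0.45, Ei24 by 0.15, Bax by -0.20 and Ppm1d by -0.29 on the log2 scale. Fas, Gdf15, Dcxr, Tp53i11, Ak1 and Plk2, the other genes past the size rule with a window in the table, had no match in it. A match is a description of letters and not a measured binding site, and a window without one says nothing about sites elsewhere, such as the intronic p53 sites known for Mdm2 and Fas.

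**Figure D3:**
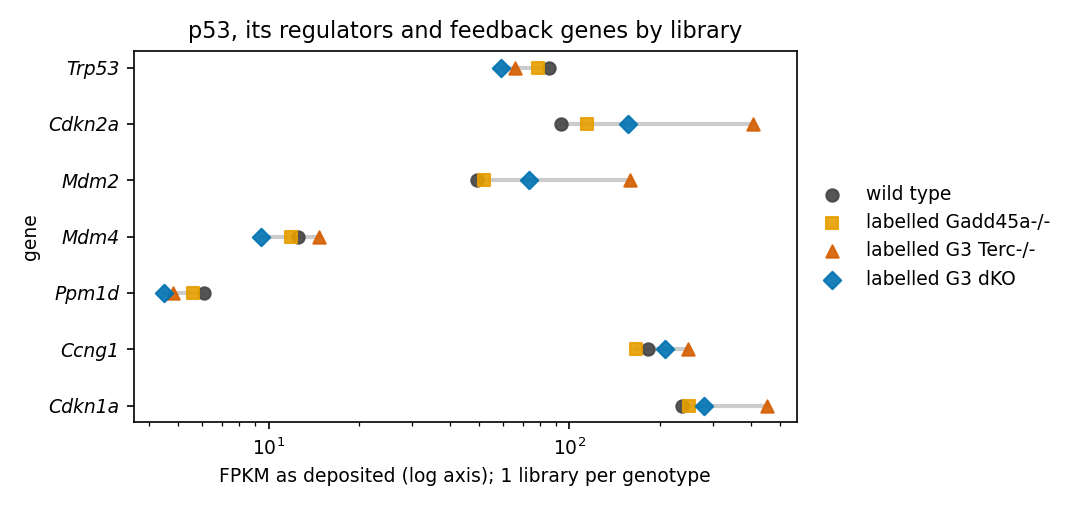
FPKM (log axis) of Trp53, Cdkn2a, the feedback genes and Cdkn1a, with 1 marker per library and a grey line from lowest to highest. Cdkn2a, Mdm2 and Cdkn1a are highest in the library labelled G3 Terc-/- (407, 159 and 452 FPKM), while Trp53 is highest in wild type (85.5 FPKM).

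The membrane genes of the death pathway held the widest differences, confined among these 4 genes to Fas and Perp. Fas, the death receptor that assembles a caspase-activating complex, measured 3.29 FPKM in the wild-type library and 5.18, 41.1 and 7.86 FPKM in those labelled Gadd45a-/-, G3 Terc-/- and G3 dKO. That is 12.5-fold above wild type and 5.23-fold above the library labelled G3 dKO, and its difference from wild type ranked 89 from the top of 11586 genes. The library labelled G3 dKO was still 2.39-fold above wild type.

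Perp, a tetraspan membrane protein of desmosomes that also takes part in apoptosis, stood at 1.63, 1.86, 18.4 and 2.33 FPKM in this order of libraries. It was 11.3-fold higher in the library labelled G3 Terc-/- than in wild type, and its difference of -2.54 between the G3 libraries ranked 95 from the bottom of all genes. The other 3 libraries lay close together. Perp is abundant in epithelia. The summed level of 8 epithelial markers was 9.51 FPKM in the wild-type library and 2.98, 2.46 and 2.1 FPKM in those labelled Gadd45a-/-, G3 Terc-/- and G3 dKO. Krt8 and Krt18 made up most of the wild-type sum (3.04 and 5.52 FPKM) and were highest there, as were Krt5 and Krt14, which were listed at 0 in the library labelled G3 Terc-/-. Epcam (0.109 FPKM) and the desmosomal plaque gene Dsp (0.761 FPKM) were highest in the library labelled G3 Terc-/-. Dsg2 was not, at 0.0185, 0.0543, 0.0275 and 0.0454 FPKM in the same order of libraries. Cdh1 measured 0.012 FPKM in every library but wild type, which had it at 0. The part of these epithelial markers in the Perp value was not tested.

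The other receptors were flat by comparison. Tnfrsf10b, the receptor of the death ligand TRAIL, stood at 20.9, 23.1, 26.7 and 31.6 FPKM and was highest in the library labelled G3 dKO. Eda2r, an X-linked receptor of ectodysplasin A2, stood at 18.0, 16.4, 17.1 and 19.9 FPKM. Their differences between the G3 libraries, 0.24 and 0.21, had the opposite sign to those of Fas and Perp.

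The core of the mitochondrial pathway did not differ by the size rule in any comparison. Bax, which forms pores in the outer mitochondrial membrane, stood at 298 FPKM in the wild-type library and at 281, 260 and 271 FPKM in those labelled Gadd45a-/-, G3 Terc-/- and G3 dKO. It was thus lowest where Fas was highest. Bbc3 (Puma), which unleashes Bax, stood at 18.6, 13.3, 15.9 and 14.9 FPKM, and Pmaip1 (Noxa), of like function, at 21.3, 21.2, 27.9 and 24.1 FPKM. Apaf1, the scaffold of the apoptosome that activates caspase-9 after pore formation, stood at 12.6, 11.1, 11.1 and 10.8 FPKM. All 4 had a ratio of highest to lowest library between 1.15 (Bax) and 1.40 (Bbc3), and Bax, Bbc3 and Apaf1 were highest in wild type.

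Of the remaining 7 apoptosis genes, Tp53i11 was the one past the rule. Tp53i11, a little-studied p53-induced membrane protein, stood at 4.75, 3.71, 18.6 and 5.18 FPKM, 3.92-fold higher in the library labelled G3 Terc-/- than in wild type and 3.60-fold higher than in the library labelled G3 dKO. The library labelled G3 dKO differed from wild type by 0.10 on the log2 scale. Pidd1, the scaffold that activates caspase-2, stood at 4.22, 3.94, 8.10 and 6.34 FPKM, so that both G3 libraries exceeded both others. Trp53inp1, a nuclear and autophagy protein that aids p53, stood at 18.6, 16.9, 32.4 and 23.0 FPKM, and its libraries ranked as for Pidd1.

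Phlda3, which competes with the survival kinase Akt for membrane lipids, stood at 169, 189, 247 and 214 FPKM, a difference of 0.54 between the library labelled G3 Terc-/- and wild type. Smaller still were the differences of Aen, an apoptosis-enhancing nuclease (54.1, 52.3, 47.3 and 51.1 FPKM), and Ei24, a protein of the endoplasmic reticulum (56.0, 53.8, 62.0 and 52.8 FPKM). Zmat3, an RNA-binding zinc finger protein, was nearly level at 21.2, 19.9, 23.1 and 23.2 FPKM. Over the 11 genes of the mitochondrial and caspase group the median difference between the library labelled G3 Terc-/- and wild type was 0.15. Of the 11, 1 was higher (9.09%, against 9.93% of all genes) and none lower (6.23% of all genes), a share of higher genes near that of all genes.

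Among growth arrest and stress signalling genes, Gdf15 and Plk2 passed the rule and Btg2 came just short of it. Gdf15, a secreted stress cytokine of the TGF-beta superfamily, measured 3.84 FPKM in the wild-type library and 5.12, 28.0 and 7.52 FPKM in those labelled Gadd45a-/-, G3 Terc-/- and G3 dKO. That is 7.30-fold above wild type, and 3.73-fold above the library labelled G3 dKO. Plk2, a polo-like kinase induced by stress, stood at 120, 102, 241 and 101 FPKM across the libraries, with the other 3 libraries close together. Its difference of 1.00 from wild type lay at the edge of the rule, and that of -1.25 between the G3 libraries beyond it. Btg2, an antiproliferative factor that promotes mRNA decay, stood at 27.4, 25.4, 52.4 and 33.8 FPKM, a difference of 0.91 from wild type.

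The rest of this group differed less. Sesn1, a sestrin that restrains the growth kinase mTORC1, stood at 3.04, 3.49, 4.73 and 3.58 FPKM. Ddit4 (Redd1), which restrains mTORC1 by another route, stood at 75.6, 77.0, 82.2 and 88.2 FPKM, and Plk3, a second stress-linked polo-like kinase, at 12.7, 12.1, 13.3 and 10.0 FPKM. Ddit4 was highest in the library labelled G3 dKO and Plk3 lowest there. All 6 genes of the group lay above wild type in the library labelled G3 Terc-/-, against 50.4% of all genes, with a median difference of 0.71.

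The DNA repair targets showed small differences of like sign. None of the 5 passed the rule. All 5 lay above wild type in the library labelled G3 Terc-/-, against 50.4% of all genes. They did so by 0.21 (Xpc) to 0.66 (Ercc5), with a median of 0.49. Ercc5 (XPG), an endonuclease of nucleotide excision repair, stood at 9.93, 8.89, 16.3 and 10.7 FPKM, and Polk, a polymerase that copies past damaged bases, at 10.1, 9.44, 14.5 and 11.7 FPKM. Rrm2b, the p53-induced ribonucleotide reductase subunit that supplies nucleotides outside S phase, stood at 2.34, 2.68, 3.91 and 2.93 FPKM. The damage sensors of nucleotide excision repair were low as well: Ddb2 stood at 2.69, 2.66, 4.18 and 3.19 FPKM and Xpc at 4.33, 3.53, 5.16 and 3.99 FPKM. The exons of Ddb2 overlap those of Acp2 on the opposite strand (8.17 to 11.7 FPKM), and the sources used here do not say whether strand was used, so the Ddb2 value is uncertain. The same holds for Sulf2, which overlaps Ncoa3 (4.19 to 6.44 FPKM).

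Of the metabolic and matrix targets, Dcxr and Ak1 were high in both G3 libraries. Dcxr, an enzyme that reduces dicarbonyl compounds and L-xylulose, stood at 25.7, 24.9, 93.8 and 49.5 FPKM. It was 3.64-fold above wild type in the library labelled G3 Terc-/- and 1.92-fold above it in the library labelled G3 dKO. Ak1, the adenylate kinase that balances ATP, ADP and AMP, stood at 71.0, 73.8, 156 and 135 FPKM. Its difference between the G3 libraries was -0.21, while the library labelled G3 dKO remained 1.90-fold above wild type. Unlike Perp or Tp53i11, both genes thus stood nearly as high or midway in the library labelled G3 dKO, but whether these patterns differ beyond culture spread could not be tested with 1 library each. Sulf2, which trims sulfate groups from heparan sulfate outside the cell, stood at 92.0, 75.9, 76.7 and 72.7 FPKM and was highest in wild type. Against wild type the 1.5-fold rule counted 4 targets as higher in the library labelled G3 dKO, namely Fas, Gdf15, Dcxr and Ak1 (12.1%, against 10.1% of all genes). By the same rule, Dcxr and Ak1 were the 2 targets that were higher in the library labelled G3 dKO than in the library labelled Gadd45a-/- (6.06%, against 8.1% of all genes).

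**Figure D4:**
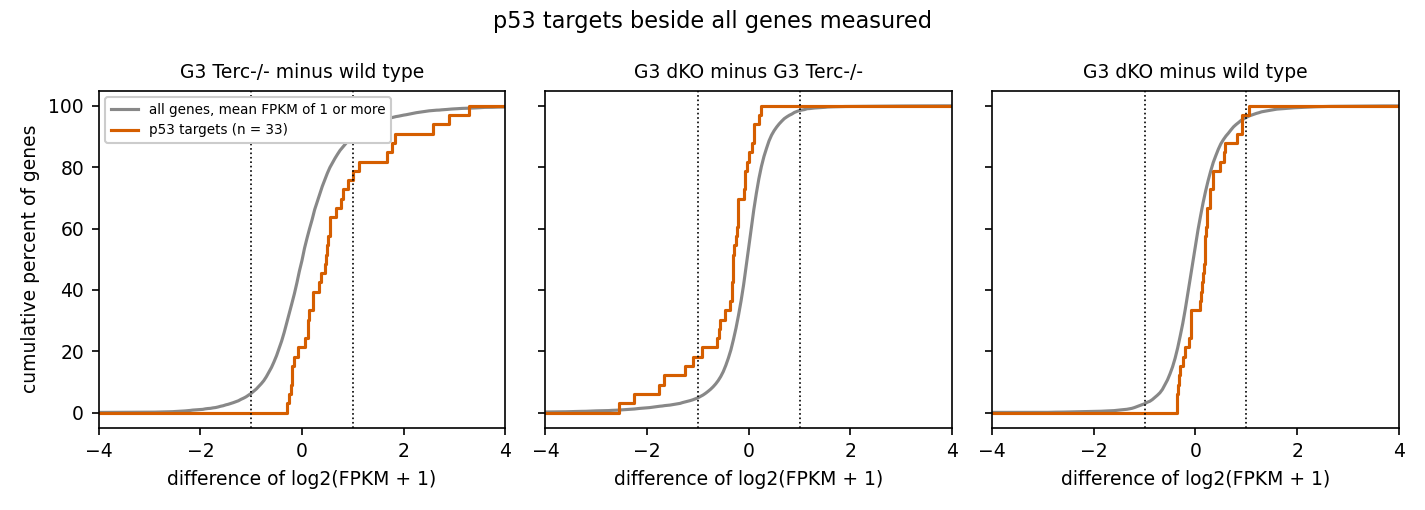
Cumulative percent of the 33 p53 targets (orange) and of all genes with a mean of 1 FPKM or more (grey) by their difference of log2(FPKM + 1), in 3 comparisons, with dotted lines at -1 and 1. The targets lie to the right of all genes in the first panel (medians 0.48 and 0.01), to the left in the second (-0.30 and -0.03), and closer to all genes in the third (0.18 and -0.04).

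The transcript of p53 itself did not follow its targets. Trp53 measured 85.5 FPKM in the wild-type library and 78.4, 65.8 and 59.4 FPKM in those labelled Gadd45a-/-, G3 Terc-/- and G3 dKO, lower in both G3 libraries by less than the size rule. p53 activity is set largely at the protein level, which was not measured here. Cdkn2a, whose ARF product inhibits Mdm2 and whose p16 product inhibits cyclin-dependent kinases, stood at 93.9, 115, 407 and 156 FPKM, highest in the library labelled G3 Terc-/-. A value per gene does not divide the ARF and p16 transcripts. Cdkn1a stood at 236, 249, 452 and 280 FPKM. Its difference of 0.93 between the library labelled G3 Terc-/- and wild type was just below the rule and above the median of 0.48 over the 33 targets.

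Of 24 measured genes in a list of p53 and its upstream regulators, 2 were higher in the library labelled G3 Terc-/- than in wild type (8.33%, against 9.93% of all genes) and 1 was lower (4.17%, against 6.23%), both shares near or below those of all genes. The median was -0.28. The higher ones were Cdkn2a and Pml, a nuclear body protein that is also induced by interferon (12.6 and 30.5 FPKM), and the lower one was the checkpoint kinase Chek1 (3.32 and 0.651 FPKM). The damage kinases Atm (4.44 and 2.84 FPKM) and Atr (2.84 and 2.15 FPKM) were not past the rule. The p53 relatives Trp63 and Trp73 were at 0.104 FPKM or less in every library.

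A list of other p53 targets had 9 of 28 measured genes higher in the library labelled G3 Terc-/- than in wild type (32.1%, against 9.93% of all genes) and 2 lower (7.14%, against 6.23%), with a median of 0.68. The largest differences belonged to the chemokine Ccl2 (104 and 1638 FPKM), the ubiquitin-like Isg15 (17.0 and 268 FPKM), the cytokine Lif (4.23 and 41.9 FPKM) and the peptide transporter Tap1 (4.55 and 30.7 FPKM). These respond to inflammatory or interferon signals as well as to p53, and Isg15 and Ccl2 also stand in the interferon and NF-kB lists below. The lower ones were Pcna, the sliding clamp of replication (117 and 36.0 FPKM), and Sfn (7.71 and 2.52 FPKM), which sequesters mitotic cyclin complexes. Between the G3 libraries 5 of 28 were lower in the library labelled G3 dKO (17.9%, against 4.78% of all genes) and none higher (1.51% of all genes), with a median of -0.22.

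Other programmes differed between the same libraries and touch the genes above. All 10 listed interferon-stimulated genes were higher in the library labelled G3 Terc-/- than in wild type (median 4.34), against 9.93% of all genes. So were 7 of 10 NF-kB targets (median 2.65). Among them Irf7 stood at 2.88 and 110 FPKM and Nfkbia at 8.72 and 53.8 FPKM. Fas is known to respond to NF-kB and interferon, so these values stand beside its own, and their part in the Fas, Perp and Gdf15 values was not tested. All 10 interferon-stimulated genes and 7 of 10 NF-kB targets were lower in the library labelled G3 dKO than in the library labelled G3 Terc-/- (medians -3.51 and -2.56). Of all genes, 4.78% were lower there. All 10 mitotic genes were lower in the library labelled G3 Terc-/- than in wild type (median -2.61), against 6.23% of all genes. Mki67 stood at 27.9 and 2.97 FPKM. Gdf15 and Ddit4 also belong to the ATF4 stress response. Of 10 ATF4 targets 7 were lower in the library labelled G3 Terc-/- than in wild type (median -1.54), against 6.23% of all genes. Trib3 stood at 70.2 and 9.60 FPKM. The part of the ATF4 response in the Gdf15 and Ddit4 values was not tested.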

How the data were processed

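Each genotype gave 1 poly(A)-selected RNA library, per the labels' protocols. FPKM values were deposited by the authors, 1 for each gene symbol and library. TopHat2 2.1.1, Cufflinks 2.2.1 and the build mm9 are named in the submitters' processing notes, without roles. Which annotation, strand setting or filters were used is not given in the sources used here. Since FPKM is scaled to mapped fragments, abundant transcripts depress all other values of a library.

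From 23235 symbols, 746 of short RNA were left out, and 11586 of the other 22489 had a mean FPKM of 1 or more. Differences of log2(FPKM + 1) were taken with Python 3.11.15 and pandas 2.3.3, with 5 comparisons and a pseudocount of 1 FPKM. This understates ratios of low genes, while folds in the text are plain FPKM ratios. No test was possible. Depth came from values up to 0.05 FPKM of genes with 1 transcript of 1500 to 8000 nt in GENCODE M21 and a fragment length of 200 nt, and 78% to 81.2% of these values lay within 0.1 of a whole fragment, the estimate being set on the same values. Fragment numbers per gene use the longest transcript and are approximate. The procedure was tested on simulated data with planted changes larger than the size rule and counting noise alone. Those data hold no culture-to-culture spread, so the test does not bear on it. The members, lists, roles and named genes (members past the size rule in full, others by role, and up to 4 per pathway list) were chosen with earlier results of these data known. Sequences are from RefSeq on GRCm38.p6, and no coordinate was carried between builds.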

Additional observations from a re-analysis of the deposited data

Results flagged for a closer look

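The difference that goes with the label of Gadd45a deficiency had opposite signs with and without Terc in 12 of the 33 targets (36.4%, against 49.6% of all genes). In 4 of these the 2 differences also lay 1 or more apart on the log2(FPKM + 1) scale (12.1%, against 5.69% of all genes). In Terc-proficient cells it was small and positive for Mdm2 (0.08), Perp (0.12), Gdf15 (0.34) and Fas (0.53), and between the G3 libraries it was negative beyond the size rule. Subtracting the first difference from the second gave -1.19 for Mdm2, -2.66 for Perp, -2.78 for Fas and -2.11 for Gdf15 on the log2(FPKM + 1) scale. Tp53i11 (-1.38) and Plk2 (-1.02) also reached 1 in size, with the same sign in both backgrounds. Whatever the signs, 6 of the 33 targets reached it (18.2%, against 7.81% of all genes). The difference between the 2 backgrounds was not tested, since each value comes from 1 library. The library labelled Gadd45a-/- also differed from the others in Ddx3y and Xist, so sex and background cannot be told apart here. Gadd45a itself was higher, not lower, in both libraries labelled as lacking it.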

How the results depend on the processing

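Over the 33 targets and 5 comparisons, 15 differences were past the size rule. All 15 stayed past it with the same sign under median-of-ratios scaling and quantile normalization. They also stayed under a pseudocount of 0.1 FPKM and without the filter on low values, but these settings could not remove a call. A smaller pseudocount only widens a difference, and the filter does not enter the value of a gene. Quantile normalization moved the median difference of the targets to 0.36 for the library labelled G3 Terc-/- against wild type and to -0.20 for the library labelled G3 dKO against the library labelled G3 Terc-/-. The 1.5-fold rule gave 2 higher targets, not 0, for the library labelled G3 dKO against the library labelled Gadd45a-/-, and 4, not 1, against wild type. The other counts and medians stayed within 1.5 times or 0.1 of the reported values. The median over the targets of the difference between the 2 backgrounds was -0.27; its alternatives were chosen after seeing the data. No paired analysis was possible because each genotype had 1 library and the labels carry no replicate numbers, and for the same reason no library could be left out. Depth does not limit these values, since the lowest, Perp in wild type, stands for about 61 fragments, but culture-to-culture spread is unknown.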
